A study of Mus musculus with 18 samples.

Results

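The genes described here are 10 parts or outputs of the circadian clock: Dbp, Tef, Hlf, Nr1d1, Nr1d2, Per2, Per3, Cry1, Cry2 and Clock. They were taken by symbol, as all probe sets that the platform annotation of the array gives to 1 of these genes. That gave 25 probe sets for 10 of the 18193 genes named on the array, and 23 of the 25 passed the filter on low signal. The 2 that did not are probe sets of Per3, so all 10 genes were tested. Where a single probe set stands for a gene, it is the tested 1 with the highest mean signal over all arrays.

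The clock of a mammalian cell is a loop in which CLOCK and its partner BMAL1 (gene Arntl) switch on the Per and Cry genes through E-box sequences, and the PER and CRY proteins then shut CLOCK and BMAL1 off. A second loop runs through the REV-ERB nuclear receptors, made by Nr1d1 and Nr1d2, which repress Arntl. DBP, TEF and HLF are activators of the PAR bZIP family that carry the rhythm to other genes through D-box sequences, and the RNA of Dbp is known for one of the strongest daily swings in brain and liver.

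RNA of 18 mouse samples was measured, each on 1 Affymetrix array. Ppt1 makes palmitoyl protein thioesterase-1, a lysosomal enzyme that takes palmitate off proteins and whose loss causes infantile neuronal ceroid lipofuscinosis. The groups were Ppt1 knockout (KO) at 3, 5 and 8 months of age and wild type (WT) at the same ages, 3 arrays each, with 1 male and 2 females in every group but the 8-month KO group, which had 2 males and 1 female. The labels name no strain, no treatment and no hour of day at which tissue was taken. Clock genes change with the hour, so genotype and age can be compared here only as far as the hours were alike, which was not tested. Each group held both sexes, so its arrays came from more than 1 animal, but whether the arrays of 1 sex in a group are separate mice is not stated, and the p-values below measure only the spread between these samples.

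The label on the tissue reads "brain, cochlea", and whether both were in each sample is not stated. All 8 neuronal markers lay above the level of the array's bacterial control probe sets on every array, while 2 of 9 cochlear markers did so (Otof and Coch), and Oc90 lay at or below that level on all 18. Of 6 markers of the suprachiasmatic nucleus, the seat of the central clock, 4 lay above it on every array, Avp and Vip among them. Ppt1 itself gave signals of 0.879 to 23.4 on KO arrays, against 543 to 629 on WT arrays, so each array went with its label. The 3 arrays of the 8-month KO group were not alike. On the main principal component of all arrays (24.2% of the variance), replicates 1 and 2 lay at 50.7 and 45.6 and replicate 3 at 9.85. The 3-month KO arrays lay at -1.86 to -1.41, the 5-month KO arrays at 11.1 to 17.6 and the WT arrays at -18.9 to -11.6. Replicate 3 had the lowest mean correlation with its own group of all 18 arrays, at 0.961, against 0.967 and 0.969 for replicates 1 and 2. Which of the 3 is unusual for that age cannot be told from these arrays. Calls that rest on the 8-month KO group are given with and without replicates 1 and 2, a choice made after seeing the data. Without them, replicate 3 alone stands for that group.

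Promoters are printed to show where the motifs named above stand in these genes, for 3 genes whose signal passed the test and whose promoter held a motif (Tef, Hlf and Per3), for Dbp as the gene with the largest change, and for Cry1 as a gene whose signal did not pass. They are the RefSeq sequences of assembly GRCm38.p6, from 250 bases before to 50 after the start of the gene, written 5′ to 3′ on the strand of the gene, with motifs in capitals. Of the 10 genes, 9 had an entry, with 12 promoters in all. The motifs searched on both strands were the E-box CACGTG, its variant CACGTT, the D-box as TTATGTAA or TTACGTAA, the REV-ERB and ROR core as TAGGTCA or TGGGTCA, and the cAMP response element TGACGTCA.
Dbp, chr7:45704997-45705296, plus strand: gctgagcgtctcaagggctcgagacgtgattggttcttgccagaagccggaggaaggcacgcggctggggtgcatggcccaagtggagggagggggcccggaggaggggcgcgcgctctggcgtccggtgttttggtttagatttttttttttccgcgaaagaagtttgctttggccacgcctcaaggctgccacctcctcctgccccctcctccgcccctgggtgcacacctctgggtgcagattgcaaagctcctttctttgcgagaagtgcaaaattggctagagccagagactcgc
Tef, upstream start, chr15:81802423-81802722, plus strand: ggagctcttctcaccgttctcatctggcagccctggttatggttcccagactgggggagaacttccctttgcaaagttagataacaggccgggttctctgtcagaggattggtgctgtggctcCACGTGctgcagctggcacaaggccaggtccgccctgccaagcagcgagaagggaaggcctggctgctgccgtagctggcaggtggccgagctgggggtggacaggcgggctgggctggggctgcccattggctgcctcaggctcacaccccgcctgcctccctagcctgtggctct
Tef, downstream start, chr15:81811164-81811463, plus strand: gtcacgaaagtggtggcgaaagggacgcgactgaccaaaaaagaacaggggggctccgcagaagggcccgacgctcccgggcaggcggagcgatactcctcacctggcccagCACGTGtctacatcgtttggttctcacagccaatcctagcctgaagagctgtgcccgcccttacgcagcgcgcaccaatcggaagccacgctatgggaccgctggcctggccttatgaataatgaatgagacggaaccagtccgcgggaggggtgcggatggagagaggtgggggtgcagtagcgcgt
Hlf, chr11:90390868-90391167, minus strand: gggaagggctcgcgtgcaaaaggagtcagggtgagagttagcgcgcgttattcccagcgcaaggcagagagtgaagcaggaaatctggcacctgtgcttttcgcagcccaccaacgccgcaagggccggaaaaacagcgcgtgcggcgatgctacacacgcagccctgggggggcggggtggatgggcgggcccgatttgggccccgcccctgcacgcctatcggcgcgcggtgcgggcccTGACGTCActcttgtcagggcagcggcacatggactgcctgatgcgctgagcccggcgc
Per3, chr4:151044616-151044915, minus strand: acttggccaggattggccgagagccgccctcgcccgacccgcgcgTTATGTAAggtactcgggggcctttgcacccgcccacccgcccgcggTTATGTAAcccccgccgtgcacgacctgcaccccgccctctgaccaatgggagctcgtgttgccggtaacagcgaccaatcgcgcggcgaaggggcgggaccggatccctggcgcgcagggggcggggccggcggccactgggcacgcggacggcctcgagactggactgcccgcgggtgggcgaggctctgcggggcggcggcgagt
Cry1, chr10:85185005-85185304, minus strand: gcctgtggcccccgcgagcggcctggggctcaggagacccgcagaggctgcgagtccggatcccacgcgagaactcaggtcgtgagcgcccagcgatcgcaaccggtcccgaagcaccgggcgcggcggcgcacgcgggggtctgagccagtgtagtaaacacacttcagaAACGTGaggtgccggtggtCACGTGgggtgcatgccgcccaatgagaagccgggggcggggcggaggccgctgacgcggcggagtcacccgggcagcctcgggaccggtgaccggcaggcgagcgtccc

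Each of the Tef promoters held 1 E-box, beginning 127 and 138 bases upstream of its start. Cry1 held 1 E-box 60 bases upstream and, 79 bases upstream, the variant CACGTT on the other strand, which reads AACGTG here. Per3 held 2 D-boxes of the form TTATGTAA, 205 and 158 bases upstream, and Hlf a cAMP response element 9 bases upstream. No searched motif lay in the Dbp window, nor in those of Nr1d2, whose signal passed, and Clock, whose signal did not. Nr1d1 and Cry2, whose signals did not pass, each held CACGTT on the other strand, 28 and 166 bases upstream, so genes that passed and genes that did not both include windows with and without a motif. Over 32851 promoters of the same length in the same table, 7.15% held CACGTG, 4.68% CACGTT, 0.938% TTATGTAA, 0.119% TTACGTAA, 2.61% TAGGTCA, 3.98% TGGGTCA and 1.79% TGACGTCA, and 0.0213% held TTATGTAA more than once. A match is a stretch of letters and not a measured site. Sequence outside these windows was not searched, so a gene without a match here may hold the motif elsewhere.

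Averaged over the 3 ages, 5 of the 10 clock genes were lower in KO than in WT brains and none was higher. They were the 3 PAR bZIP activators Dbp, Tef and Hlf, the REV-ERB gene Nr1d2, and Per3. Over all 27025 probe sets tested, 6.02% were lower and 6.62% higher in that comparison (limma, Benjamini-Hochberg adjusted p under 0.05, as throughout). Changes and folds are on the scale of log2(signal + 16), which understates those of dim genes. The median log2 change of the 10 genes was -0.20, beside -0.01 over all probe sets tested. The 10 genes were chosen with earlier results of these data known, so their shared direction is not independent evidence. The comparisons at single ages use the same arrays as this mean. In bulk tissue, fewer cells of a type and less RNA per cell cannot be told apart.

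**Figure D1:**
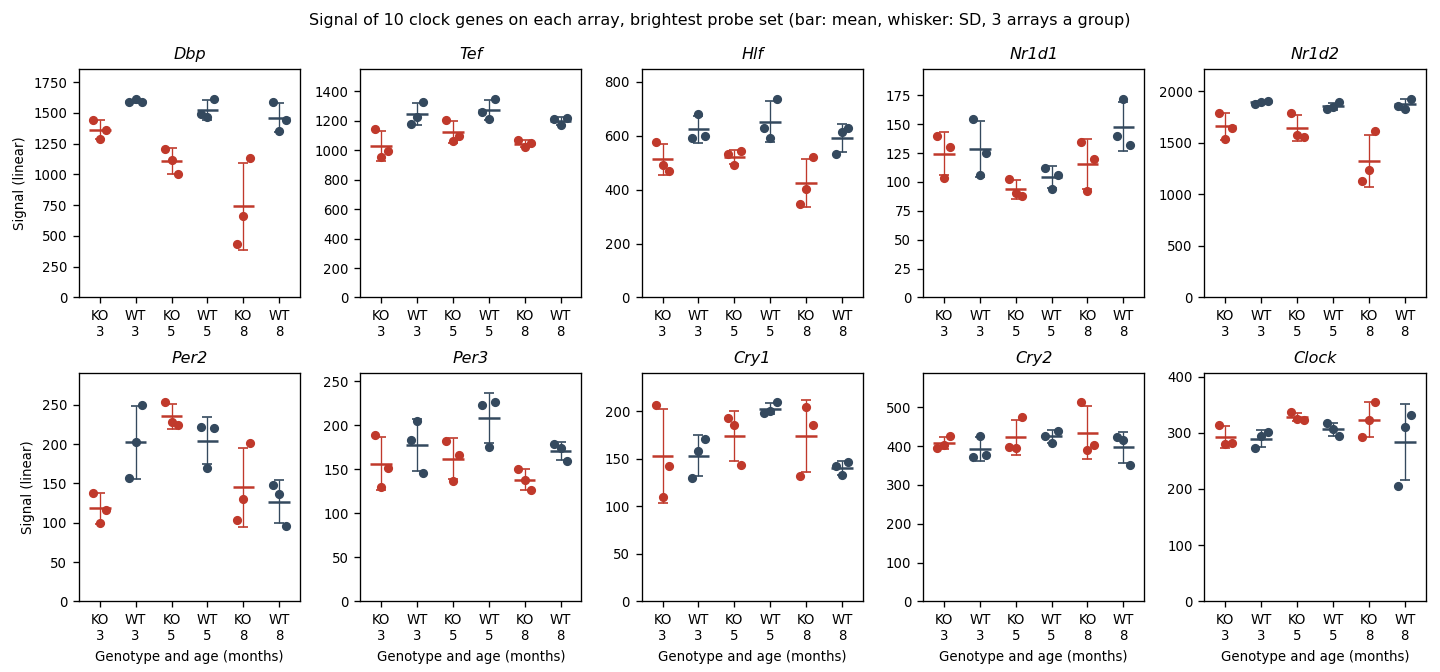
Linear signal (vertical axes, from 0) of the 10 clock genes at the brightest probe set of each, by genotype and age in months. Points are arrays, bars are group means and whiskers SD (3 arrays a group): KO arrays of Dbp, Tef, Hlf and Nr1d2 lie below the WT arrays of the same age at all 3 ages.

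Dbp, the D-box activator with a wide daily swing, had the largest fall. Its signal was 1439.5, 1286 and 1357 in 3-month KO brains, against 1584, 1610.0 and 1587 in 3-month WT brains. At 5 months it was 1209.9, 1113 and 1003 in KO and 1492, 1463 and 1615 in WT brains. At 8 months it was 437, 661 and 1129.8 in KO and 1584, 1354 and 1441 in WT brains. KO arrays lay below WT arrays without overlap at each age, and at 8 months KO replicate 3 lay well above the other two. The mean log2 change over ages was -0.59 ± 0.11 (SE; adjusted p = 0.000652), or 1.51-fold lower, and the change at 8 months was -1.09 ± 0.19 (adjusted p = 0.000565), or 2.13-fold lower. At 3 and 5 months the changes of -0.23 ± 0.18 and -0.46 ± 0.18 did not pass (adjusted p = 0.77 and 0.249). This probe set is of a type whose probes can also match other transcripts. The other probe set of Dbp, not of that type, gave -0.62 ± 0.10 over ages (adjusted p = 0.00029) and -1.24 ± 0.18 at 8 months (adjusted p = 0.000109).

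Without 8-month KO replicates 1 and 2, Dbp still passed, at -0.37 (adjusted p = 1.4e-05) over ages and -0.42 (adjusted p = 0.0315) at 8 months, and the other probe set gave -0.67 (adjusted p = 0.00349) at 8 months. In that fit the 8-month KO group is 1 array, which is assumed to vary like the other groups. The mean of the 3- and 5-month differences alone was -0.34 ± 0.13 (adjusted p = 0.164) and did not pass. This and the later means over 3 and 5 months alone come from the fit to all arrays, with 8-month KO replicates 1 and 2 kept. The SE for Dbp thus includes their spread, so the test cannot decide whether Dbp differed before 8 months. The 5-month change of -0.46 passed without 8-month KO replicate 1 or 3 (adjusted p = 0.018 and 0.013), and in no other fit that left out 1 array.

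Tef, the second PAR bZIP activator, was lower in KO brains by a similar amount at each age. Its signal was 1142, 951 and 994 in KO and 1180.1, 1225 and 1329 in WT brains at 3 months. The 5-month signals were 1205, 1064 and 1098 in KO and 1259, 1214 and 1350.3 in WT brains, and at 8 months 1067, 1022 and 1046 in KO and 1213, 1170.3 and 1216 in WT brains. The groups did not overlap at any age. The mean change was -0.22 ± 0.042 (adjusted p = 0.00118), or 1.17-fold lower. The mean of the 3- and 5-month differences alone, from the fit to all arrays, passed also, at -0.23 (adjusted p = 0.0122). At 3, 5 and 8 months the changes were -0.27, -0.18 and -0.21, none past the threshold by itself (adjusted p = 0.0869, 0.255 and 0.0665).

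A dimmer probe set of Tef, of the same type as the brighter one of Dbp, was lowest in KO brains at 8 months. It read 359, 275 and 282 in KO and 344, 337 and 319 in WT brains at 3 months, 234, 236 and 229.6 in KO and 363, 291 and 278 in WT brains at 5 months, and 194, 159 and 246 in KO and 334, 380.5 and 339 in WT brains at 8 months. Its change at 8 months was -0.84 ± 0.12 (adjusted p = 6.79e-05), against -0.21 at the brighter probe set, so the probe sets of Tef disagree on the size of the fall at that age. It was -0.57 (adjusted p = 0.0475) without 8-month KO replicates 1 and 2, where the brighter gave -0.23 (adjusted p = 0.338). The third, at a mean signal of 46.3, gave -0.14 ± 0.22 at 8 months (adjusted p = 0.737).

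Hlf, the third of the PAR bZIP activators, fell over ages and at 8 months. Its signal was 578, 492 and 469 in KO and 589.8, 681 and 598 in WT brains at 3 months. In the 5-month groups it was 530.4, 490.5 and 542 in KO and 627, 591 and 737 in WT brains, and at 8 months 348, 404 and 522 in KO and 533, 614 and 628 in WT brains. No KO array reached the lowest WT array of its age. The mean change was -0.35 ± 0.07 (adjusted p = 0.00169), or 1.28-fold lower, and that at 8 months -0.48 ± 0.12 (adjusted p = 0.0146). The 8-month call was lost without KO replicate 1 or 2 or WT replicate 2 or 3 of that age, with adjusted p = 0.0768, 0.0929, 0.0529 and 0.0574 in turn. Without both KO replicates it was -0.16 (adjusted p = 0.678), while the mean over ages passed, at -0.25 (adjusted p = 0.0219). The other probe set of Hlf gave -0.33 ± 0.068 over ages (adjusted p = 0.00257) and -0.61 ± 0.12 at 8 months (adjusted p = 0.00219). Without both KO replicates these were -0.23 (adjusted p = 0.0399) over ages and -0.31 (adjusted p = 0.345) at 8 months, so the 8-month call was lost there too.

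Of the REV-ERB repressors, Nr1d2 fell and Nr1d1 did not pass. Nr1d2 read 1793, 1539 and 1648 in KO and 1878, 1895 and 1909.7 in WT brains at 3 months. The 5-month readings were 1789.9, 1578 and 1561 in KO and 1825, 1851 and 1895 in WT brains, and at 8 months 1131, 1235 and 1615 in KO and 1863, 1832 and 1931 in WT brains. All 9 KO arrays lay below all 9 WT arrays, which held for no other of the 10 genes and for 0.377% of all probe sets tested. WT arrays spanned a narrow range, with a mean of 1875 ± 35.6 (SD, n = 9), against 1543 ± 225 (SD, n = 9) on KO arrays. The mean change was -0.30 ± 0.052 (adjusted p = 0.000487), or 1.23-fold lower, and that at 8 months -0.53 ± 0.092 (adjusted p = 0.000626), or 1.45-fold lower.

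Without 8-month KO replicates 1 and 2, the mean for Nr1d2 was -0.21 (adjusted p = 0.00333) and the 8-month change -0.25 (adjusted p = 0.198), so only the mean passed. A dimmer probe set of Nr1d2 gave -0.38 ± 0.13 over ages (adjusted p = 0.0552) and -0.79 ± 0.23 at 8 months (adjusted p = 0.0258). Its 8-month call was lost without KO replicate 1 or 2 or WT replicate 2 or 3 of that age (adjusted p = 0.125, 0.18, 0.085 and 0.076 in turn). Without both KO replicates its change was -0.10 (adjusted p = 0.911) at 8 months and -0.15 (adjusted p = 0.493) over ages. Nr1d1, which overlaps the thyroid hormone receptor gene Thra on the genome, read 139.9, 104 and 130.0 in KO and 154, 106 and 125 in WT brains at 3 months. It read 103, 90.3 and 87.8 in KO and 112, 94.3 and 106 in WT brains at 5 months, and 135, 92.2 and 119.6 in KO and 139.5, 172 and 132 in WT brains at 8 months, and the groups overlapped at each age. Its log2 change was -0.19 ± 0.082 over ages (adjusted p = 0.153) and -0.39 ± 0.14 at 8 months (adjusted p = 0.0828). A share of its signal from the overlapping transcript cannot be told apart.

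Per3, a period gene, was lower over ages by a small amount. It read 189, 129.5 and 151 in KO and 183, 205 and 146 in WT brains at 3 months. In 5-month brains it read 182, 137 and 167 in KO and 223, 175 and 226 in WT brains, and at 8 months 151, 138 and 126 in KO and 179, 174 and 159 in WT brains. KO and WT overlapped at 3 and 5 months and were apart at 8 months. The mean change was -0.28 ± 0.08 (adjusted p = 0.0234), or 1.21-fold lower. It did not pass without 3-month KO replicate 2, 5-month KO replicate 2 or 3-month WT replicate 2 (adjusted p = 0.0637, 0.0612 and 0.0531 in turn). The other 3 tested probe sets of Per3 changed by -0.16 to -0.094 over ages and none passed, so the fall rests on 1 of 4 probe sets. The 2 untested ones had mean signals of 23.0 and 19.8 and lay at or below the level of the bacterial controls on 4 and 7 of 18 arrays.

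Per2, the period gene that represses CLOCK and BMAL1 together with the cryptochromes, varied between groups without 1 direction by genotype. It read 138, 99.8 and 117 in KO and 156, 202 and 249 in WT brains at 3 months, and all KO arrays were lower. At 5 months it read 253, 229 and 224 in KO and 222, 170.0 and 221 in WT brains, and all KO arrays were higher. At 8 months it read 104, 130.3 and 201 in KO and 149, 137 and 95.5 in WT brains, and the groups overlapped. The changes were -0.69 ± 0.19, 0.20 ± 0.19 and 0.11 ± 0.20 at 3, 5 and 8 months (adjusted p = 0.112, 0.727 and 0.776), and -0.13 ± 0.11 over ages (adjusted p = 0.526). The 3-month difference passed when 3-month WT replicate 1 was left out (-0.93, adjusted p = 0.0283), and also without 8-month KO replicate 1 or 3.

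The 3 probe sets of Per2 disagreed. The dimmest, with a mean signal of 42.6, gave a log2 change of -0.59 ± 0.18 over ages (adjusted p = 0.0306), and the middle one gave 0.085 (adjusted p = 0.703). The dimmest read 23.0, 2.47 and 58.5 on the 8-month KO arrays, of which 2.47 lay at or below the level of the bacterial controls. The call at the dimmest probe set was lost in 9 of 18 fits that left out 1 array, and without 8-month KO replicates 1 and 2 its mean change was -0.24 (adjusted p = 0.337). In that fit the 8-month change of the brightest was 0.55 (adjusted p = 0.294).

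The cryptochromes and Clock did not pass in any comparison. Cry1 read 206, 109 and 142 in KO and 129.6, 159 and 171 in WT brains at 3 months. At 5 months it read 193, 185 and 143 in KO and 198, 200.3 and 209 in WT brains, and at 8 months 132, 204 and 185 in KO and 143, 132 and 147 in WT brains. The KO arrays lay below the WT arrays at 5 months and overlapped them at the other ages. The mean log2 change of Cry1 had a 95% interval of -0.21 to 0.21, that of Cry2 -0.073 to 0.18 and that of Clock -0.037 to 0.26, so a mean fall as large as that of Dbp lies outside all 3.

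Cry2, a repressor of CLOCK and BMAL1 like Cry1, had signals of 389 to 512 on KO arrays and 351 to 440.2 on WT arrays. Clock, the activator that pairs with BMAL1, had signals of 279 to 354 on KO arrays and 206 to 332 on WT arrays. Its lowest value was that of 8-month WT replicate 1, and at 5 months all KO arrays, at 337, 325 and 323, lay above all WT arrays, at 317, 307 and 294. The 4 probe sets of Clock changed by 0.0025 to 0.13 over ages.

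**Figure D2:**
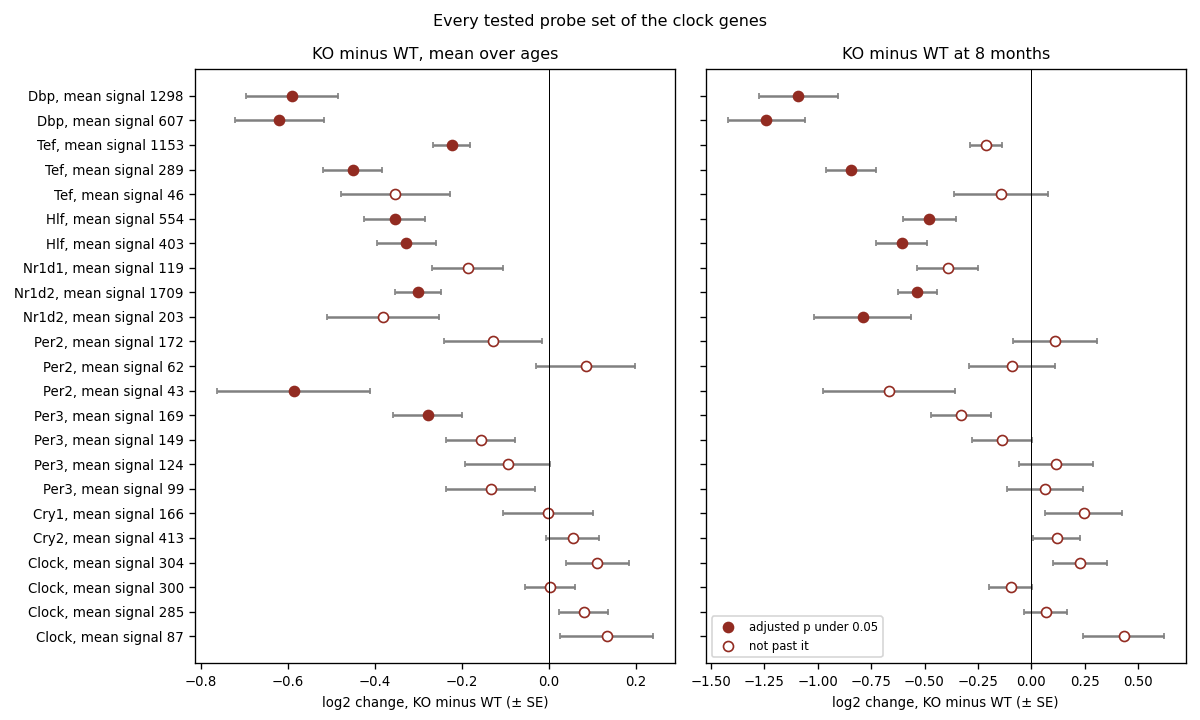
Log2 change, KO minus WT (horizontal axis, whiskers ± SE), of the 23 tested probe sets over ages (left) and at 8 months (right), with filled points for adjusted p under 0.05. In the mean over ages 9 of 23 pass and in the 8-month comparison 7 of 23, all of them lower in KO. The plot includes 8-month KO replicates 1 and 2, without which 8 and 3 pass.

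Counted by probe set, 9 of 23 were lower over ages, from 6 genes, since the dimmest probe set of Per2 adds to the 5. At 8 months 7 of 23 were lower, from Dbp, Tef, Hlf and Nr1d2. With 8-month KO replicates 1 and 2 left out, 8 of 23 were lower over ages, from the 5 genes, and 3 of 23 at 8 months, from Dbp and Tef. No probe set of the 10 genes was higher in KO brains in either comparison, while 5.74% of all probe sets were higher at 8 months. Probe sets of 1 gene share its RNA and are not replicates.

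By age, 3 of the 10 genes were lower in KO brains at 8 months (Dbp, Hlf and Nr1d2), where 5.91% of all probe sets were lower. At 3 and 5 months none passed, where 0.955% and 2.2% of all probe sets passed in either direction. At unadjusted p under 0.05, 4 of 10 differed at 3 months, 4 at 5 months and 6 at 8 months, beside 9.8%, 13.7% and 25.7% of all probe sets. KO arrays lay wholly below WT arrays for 5 genes at each age, which holds for 8.61% of all probe sets at 3 months, 10.1% at 5 months and 14.3% at 8 months. At 5 months Per2 and Clock lay wholly above, which holds for 10.2% of all probe sets. Without 8-month KO replicates 1 and 2, the count at 8 months was 1 (Dbp), where 0.744% of all probe sets were lower, and over ages the same 5 genes were lower, where 3.4% of all probe sets were. Over the 3- and 5-month differences alone, in the fit to all arrays, Tef was the only member that passed, where 1.28% of all probe sets were lower.

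**Figure D3:**
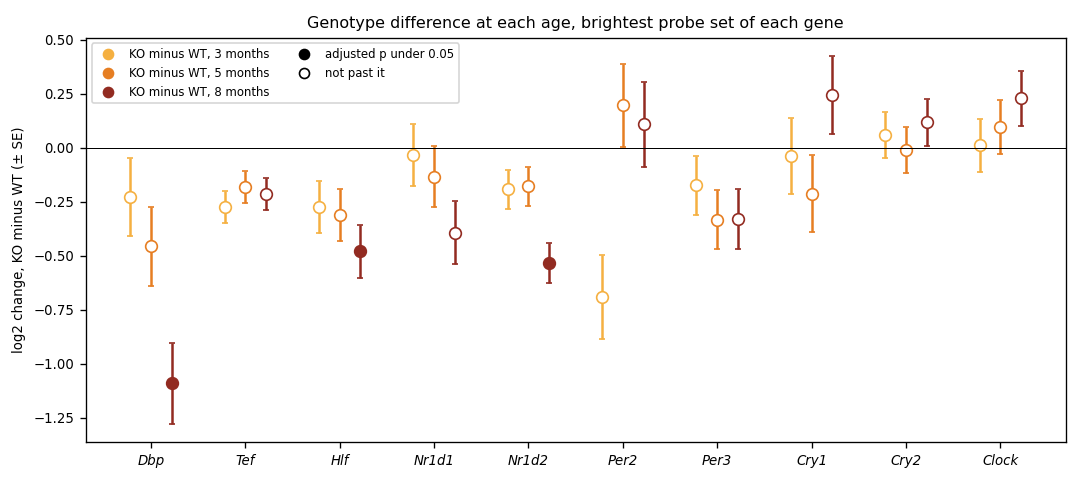
Log2 change, KO minus WT (vertical axis, whiskers ± SE), at 3, 5 and 8 months for the brightest probe set of each gene, with filled points for adjusted p under 0.05. The difference for Dbp is -0.23, -0.46 and -1.09 at 3, 5 and 8 months, that of Tef lies between -0.27 and -0.18, and that of Per2 is below 0 at 3 months only.

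Whether the difference between genotypes itself changed with age was tested as an interaction. No member passed at its brightest probe set for 8 minus 3 months (1.04% of all probe sets did) or for 5 minus 3 months (0% did). At unadjusted p under 0.05, 3 of 10 members differed in the 8-minus-3 test and 1 in the 5-minus-3 test, beside 14.4% and 5.96% of all probe sets. For Dbp the difference at 8 months minus that at 3 months was -0.86 ± 0.26 (adjusted p = 0.112), and for Nr1d2 -0.34 ± 0.13 (adjusted p = 0.212). Both passed when 8-month KO replicate 3 was left out, at -1.18 (adjusted p = 4.77e-05) and -0.47 (adjusted p = 0.0045). Without replicates 1 and 2 instead, they were -0.19 (adjusted p = 0.631) and -0.06 (adjusted p = 0.904). For Per2 the 5-minus-3 value was 0.89 ± 0.27 (adjusted p = 0.778) and the 8-minus-3 value 0.80 ± 0.28 (adjusted p = 0.171).

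Within KO brains, Dbp and Nr1d2 were lower at 8 than at 3 months, with log2 changes of -0.99 ± 0.19 (adjusted p = 0.00356) and -0.36 ± 0.092 (adjusted p = 0.026), and 2.72% of all probe sets were lower. These share the 8-month KO arrays with the comparison of genotypes at 8 months. The call for Nr1d2 was lost without 3-month KO replicate 1 or 3 or 8-month KO replicate 1 or 2 (adjusted p = 0.154, 0.0724, 0.133 and 0.155 in turn). Without 8-month KO replicates 1 and 2 together, the changes were -0.32 (adjusted p = 0.233) for Dbp and -0.075 (adjusted p = 0.854) for Nr1d2, and 0.144% of all probe sets were lower. Per2 was 1.88-fold higher at 5 than at 3 months in KO brains, by 0.91 ± 0.19 (adjusted p = 0.0428), where 0.152% of all probe sets were higher. That call was lost in 11 of 18 fits that left out 1 array, among them each of the 6 arrays compared, with adjusted p of up to 0.287.

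Within WT brains no member passed in either comparison of ages (limma), beside 0% of all probe sets for 5 minus 3 months and 0.0296% for 8 minus 3 months. At unadjusted p under 0.05, 1 of 10 differed in each, beside 4.01% and 6.73% of all probe sets. Dbp changed by -0.13 ± 0.18 and Nr1d2 by -0.015 ± 0.09 between 3 and 8 months, while Per2 changed by -0.61 ± 0.19 (adjusted p = 0.485). Males and females differed at no member (0.0703% of all probe sets passed, and at unadjusted p under 0.05 1 of 10 members, beside 3.19% of all probe sets), and the log2 difference of Dbp, males minus females, was 0.088 ± 0.11.

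Other genes of the clock were set beside the members from a list of 31, of which 27 were tested. Over ages 3 of 27 were higher in KO brains and 0 lower, beside 6.62% and 6.02% of all probe sets. The median log2 change of the 27 was -0.05, beside -0.01 over all probe sets tested. The 3 were Bhlhe40, Nfil3 and Hspa1b. In the loops, Bhlhe40 (DEC1) is a repressor that acts on E-boxes, and Nfil3 (E4BP4) a repressor that binds the same D-boxes as DBP, TEF and HLF. Hspa1b encodes a heat-shock protein of the HSP70 family that is induced by heat. None of the 3 BMAL1-family and CLOCK-like activators tested (Arntl, Arntl2 and Npas2) passed in any comparison of genotypes. Arntl, the target of the REV-ERB repressors, changed by 0.052 ± 0.078 over ages (adjusted p = 0.734). Calls over ages depended on single 8-month KO arrays. Usp2 was lower when replicate 1 was left out (-0.19, adjusted p = 0.0144). Per1 was higher without replicate 2 (0.32, adjusted p = 0.013). Without replicate 3, Rorb, Hsph1 and Gsk3b were lower (-0.24, -0.21 and -0.11, adjusted p = 0.0142, 0.00481 and 0.0277) and Cirbp was higher.

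**Figure D4:**
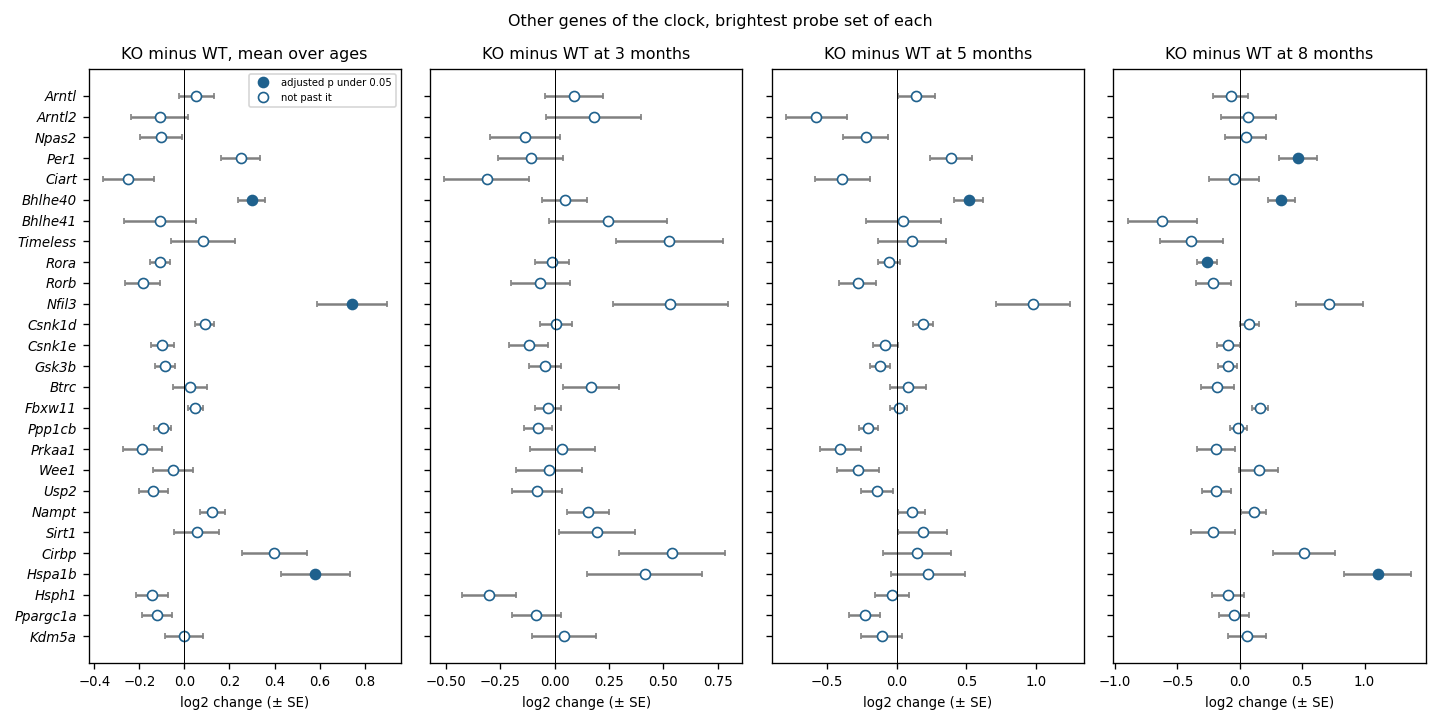
Log2 change, KO minus WT (horizontal axes, whiskers ± SE, scales differ between panels), of 27 other clock genes over ages and at 3, 5 and 8 months, with filled points for adjusted p under 0.05. Bhlhe40, Nfil3 and Hspa1b pass over ages, Bhlhe40 at 5 months, and Per1, Bhlhe40, Hspa1b and Rora at 8 months, Rora alone being lower.

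Nfil3 read 87.2, 53.5 and 47.4 in KO and 19.5, 39.7 and 59.9 in WT brains at 3 months. At 5 months it read 95.6, 125 and 54.4 in KO and 43.8, 36.7 and 30.0 in WT brains, and at 8 months 95.9, 65.0 and 78.9 in KO and 40.7, 36.9 and 44.4 in WT brains. KO arrays lay above WT arrays at 5 and 8 months and overlapped them at 3 months. The change of Nfil3 over ages was 0.74 ± 0.15 (adjusted p = 0.00251), upward where those of the 3 D-box activators were downward. At single ages Nfil3 did not pass. Whether its change is linked to theirs was not tested. Without 8-month KO replicates 1 and 2 the mean change of Nfil3 was 0.74, and over 3 and 5 months alone it was 0.75 (adjusted p = 0.0234).

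Bhlhe40 read 585, 494 and 545 in KO and 518, 559.7 and 491 in WT brains at 3 months, where the groups overlapped. It read 731, 865 and 748 in KO and 561, 532 and 529 in WT brains at 5 months, and 655, 587 and 859 in KO and 576, 501 and 523 in WT brains at 8 months, with KO above WT at both. Its change was 0.30 ± 0.061 over ages (adjusted p = 0.00202), 0.52 ± 0.10 at 5 months (adjusted p = 0.00676) and 0.33 ± 0.11 at 8 months (adjusted p = 0.0451). The 5-month call was lost without 5-month KO replicate 2 (adjusted p = 0.0703), and the 8-month call in 13 of 18 fits that left out 1 array. With 8-month KO replicates 1 and 2 left out, so that only replicate 3 stands for the group, the 8-month change was 0.64. Without replicate 3 instead, it was 0.20 (adjusted p = 0.131).

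Per1, the third period gene, was higher at 8 months, with 268, 148 and 213 in KO and 136, 139.5 and 136 in WT brains. The change was 0.47 ± 0.15 (adjusted p = 0.0483), and it kept its call in 3 of 18 fits that left out 1 array. Rora, whose product activates Arntl in opposition to the REV-ERBs, was lower at 8 months, with 705, 686 and 728 in KO and 907, 853 and 792 in WT brains (-0.26 ± 0.08, adjusted p = 0.0395), and kept its call in 11 of 18 such fits. With 8-month KO replicates 1 and 2 left out, Per1 gave 0.53 (adjusted p = 0.155) and Rora -0.20 (adjusted p = 0.452).

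Hspa1b read 299.9, 234 and 766 in KO and 156, 157 and 167 in WT brains at 8 months, so replicate 3, the KO array nearest to WT in Dbp, was the highest. Its change was 1.10 ± 0.27 at 8 months (adjusted p = 0.0107) and 0.58 ± 0.15 over ages (adjusted p = 0.0149). The 8-month call was lost without 8-month WT replicate 1 (adjusted p = 0.0743) and the mean without 3-month WT replicate 1 (adjusted p = 0.0529). Over 3 and 5 months alone the change was 0.32 (adjusted p = 0.438), and with KO replicate 3 as the only 8-month KO array it was 2.13 at 8 months (adjusted p = 2.99e-05). Cirbp, a cold-inducible RNA-binding protein, split the same 3 KO arrays the other way, at 474, 499 and 191, against 293, 188 and 267 on 8-month WT arrays, and did not pass (adjusted p = 0.198). When 8-month KO replicate 3 was left out, Cirbp was higher in KO brains at 8 months by 0.92 (adjusted p = 0.000529) and over ages by 0.54 (adjusted p = 0.000243), so that array decides its call.

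Arrays of 1 group also differed among themselves, and the other 9 genes were set against Dbp after group means were taken off, over 18 arrays. Nr1d2 moved with Dbp, with Pearson r = 0.909 (exact permutation within groups, two-sided, p = 0.00206, adjusted over 9 genes 0.0185) and Spearman rho = 0.783 (p = 0.00534, adjusted 0.048). Hlf had r = 0.697 (adjusted exact p = 0.27) and Per2 r = 0.704 (adjusted exact p = 0.0607), and the other 6 lay between -0.516 and 0.499 with none past the threshold. The arrays farthest from the median of Dbp were 8-month KO replicates 1 and 2. Without them Nr1d2 had r = 0.719 (exact p = 0.0298, adjusted 0.0895) and rho = 0.632 (exact p = 0.0541, adjusted 0.122), so on 16 arrays the correlation was smaller and did not pass after adjustment. Cry1 then had r = 0.648 (adjusted exact p = 0.0405; rho = 0.691, adjusted exact p = 0.0949).

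Within genotypes, the relation of Nr1d2 with Dbp passed on the 9 KO arrays, with r = 0.925 (adjusted exact p = 0.0208), and did not pass on the 9 WT arrays, with r = 0.393 (adjusted exact p = 0.702). On KO arrays Per2 had r = 0.941 (adjusted exact p = 0.0208), against r = 0.308 on WT arrays (adjusted exact p = 0.702). The smallest p that 216 orders allow is 0.00463, and the difference between genotypes was not tested. Dbp spanned 437 to 1439.5 on KO arrays and 1354 to 1615 on WT arrays, a narrower range.

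**Figure D5:**
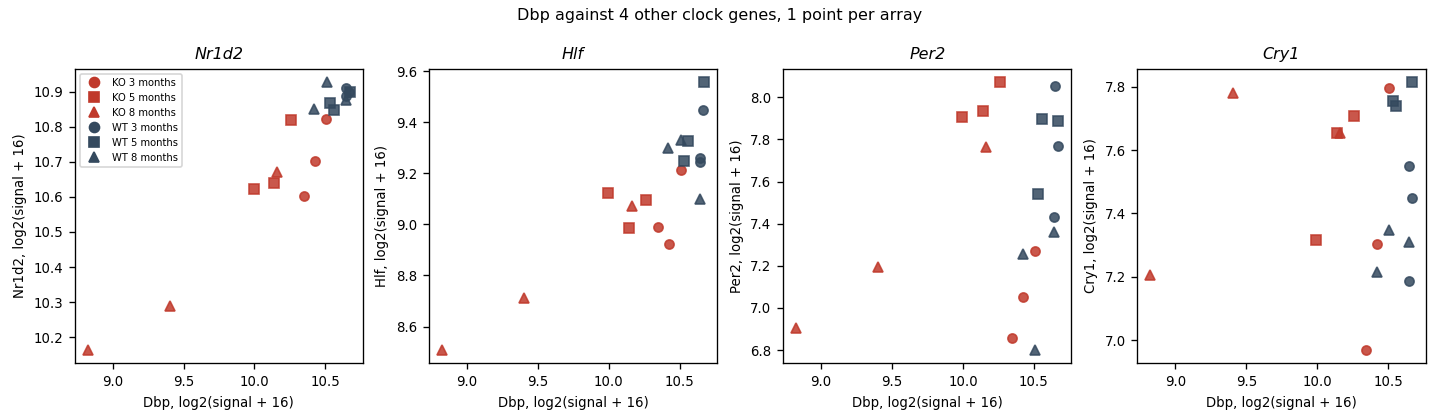
Values of Nr1d2, Hlf, Per2 and Cry1 (vertical axes) against Dbp (horizontal axes), all as log2(signal + 16), with 1 point per array, colour for genotype and shape for age. The 8-month KO arrays 1 and 2 lie lowest in Dbp, Nr1d2 and Hlf, while in Cry1 they are not the lowest.

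Other measures moved with these results. Of 14 genes that glucocorticoids induce, 10 were higher in 8-month KO brains and none lower, with a median log2 change of 1.02. Their summed signal was 40710, 24560 and 18730 on the 8-month KO arrays, against 11480 to 12240 on the 8-month WT arrays. This sum ran in the opposite order to Dbp among the KO arrays. The sums rest largely on Mt1, Klf9 and Mt2, with median signals of 4412, 3723 and 2397 over all arrays, against 1465 or less for each other gene of the list. The same list lay the other way at 3 months, with 0 of 14 higher, 2 lower, a median of -0.44 and sums of 12110 to 14040 in KO and 17030 to 18720 in WT brains, while the KO arrays of Dbp, Tef, Hlf and Nr1d2 lay below the WT arrays at that age as well. At 5 months 1 was higher, with sums of 17440 to 19500 in KO and 14480 to 17380 in WT brains. In WT brains the median change of the list from 3 to 8 months was -0.73, with 1 of 14 lower.

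Of 8 astrocyte markers 7 were higher at 8 months, with summed signals of 27410 to 32220 in KO and 19330 to 20130 in WT, and of 8 microglial markers 5 were higher, with 3642 to 6493 in KO and 2577 to 2727 in WT. Of 8 neuronal markers 1 was lower, with 25680 to 30720 in KO and 30330 to 31080 in WT. Of 4 cerebellar markers 2 were lower, with 4910, 5004 and 7063 in KO and 7323 to 8040 in WT. The median log2 change at 8 months was 0.50 for the astrocyte, 1.22 for the microglial, -0.11 for the neuronal and -0.47 for the cerebellar markers. Leaving out 8-month KO replicates 1 and 2, these medians were 0.30, 0.59, 0.038 and -0.072 in turn, and that of the glucocorticoid-induced genes was 0.57. The 8-month KO group is then 1 array, so only the size of the changes is given.

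The summed signal of 6 markers of the suprachiasmatic nucleus was 783 to 812 in KO and 1003 to 1107 in WT brains at 3 months. It was 732 to 802 in KO and 962 to 1133 in WT brains at 5 months. At 8 months it was 821 to 891 in KO and 902 to 968 in WT brains. These sums did not overlap at any age. They rest largely on Vip, with a median signal of 537 over all arrays, against 145 or less for each other marker. Six6 and Prok2 lay at or below the level of the bacterial controls on 14 and 7 of 18 arrays. Of the 4 tested, Vip, a neuropeptide of that nucleus and of cortical interneurons, and Grp were lower over ages, at -0.48 ± 0.059 (adjusted p = 6.49e-06) and -0.26 ± 0.08 (adjusted p = 0.0363), and 1 of 4 was lower without 8-month KO replicates 1 and 2. Of 7 markers of forebrain regions 3 were lower over ages (Neurod6, Tbr1 and Ppp1r1b), and 2 without those arrays. Their sums were 1432 to 1624 in KO and 1683 to 1803 in WT brains at 3 months, 1268 to 1398 in KO and 1561 to 1771 in WT brains at 5 months, and 1352 to 1500 in KO and 1603 to 1646 in WT brains at 8 months. The ratio of 5′ to 3′ actin probe sets, a sign of RNA integrity, was 0.432 to 0.482 in KO and 0.501 to 0.525 in WT brains at 8 months. The lowest of these was that of KO replicate 3. The groups overlapped at 3 months, at 0.507 to 0.542 in KO and 0.480 to 0.547 in WT brains. They overlapped also at 5 months, at 0.389 to 0.473 in KO and 0.412 to 0.499 in WT brains. The part of each in the changes of the clock genes was not tested.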

How the data were processed

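Each of the 18 RNA samples was hybridised to 1 array of 45101 probe sets, and groups of genotype and age were taken from the labels, with replicates numbered in accession order. The deposited values are linear intensities, and the software that made them is not given in the sources used here. The deposited intensities had the same mean on every array (150.001 without the lowest and highest 2%), which shows a scaling between arrays, and no further normalization was applied. Values were taken as log2(signal + 16), a scale on which dim genes change by less. Leaving out 64 control probe sets and the lowest 40% by mean left 27025. The 6 groups and an additive sex term were fitted with limma 3.58.1 in R 4.3.3 (eBayes with a variance trend, two-sided). P-values were adjusted by Benjamini-Hochberg over all 27025, at a threshold of 0.05. Errors of log2 changes are SEs of the fit. The number of arrays limits the precision, at 3 in a group. The fit was tested on simulated data.

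The background level of an array was the 95th percentile of its 27 bacterial control probe sets. Relations with Dbp were tested by all 46656 orders within groups, adjusted over 9 genes. Gene names came from the platform annotation of GEO, by which 34945 probe sets had 1 symbol, 932 several and 9160 none, and 34741 of the 34945 matched the RefSeq table of GRCm38.p6 by Entrez identifier. The genes named are the 10 members, Ppt1 and those most like Dbp. Of the other clock genes, up to 8 that passed over ages and up to 4 in each other comparison are named. Arntl, Cirbp, Usp2, Rorb, Hsph1, Gsk3b and single markers were named beside them after their values were seen. The members and all gene lists were chosen with earlier results of these data known. Alternatives were quantile normalization, pseudocounts of 1 and 64, no filter, no sex term, no variance trend, array weights, only the groups compared, all probe sets, and each array left out.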

Additional observations from a re-analysis of the deposited data

Results flagged for a closer look

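For the dimmer of the well-measured Tef probe sets, the difference between KO and WT at 8 months differed from that at 3 months by -0.714 on the log2 scale ± 0.16 (SE; limma, adjusted p = 0.0384), in a test of the interaction of genotype and age over all 27025 probe sets. Its signal was 199.8 ± 43.7 in KO and 351 ± 25.6 in WT brains at 8 months (SD, n = 3 each), against 305 ± 47.0 in KO and 333 ± 12.7 in WT brains at 3 months. All 3 KO arrays lay below all 3 WT arrays at 8 months, and 2 of 3 did at 3 months. The call held in 8 of 18 fits that left out 1 array, and without 8-month KO replicates 1 and 2 the value was -0.44 (adjusted p = 0.377). The brightest Tef probe set gave 0.059 ± 0.10 for the same test (adjusted p = 0.847). Of the 23 tested probe sets of the clock genes, no other passed this interaction test. Groups of 3 arrays are too small for a search for single outlying arrays, and none was made.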

How the results depend on the processing

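No paired analysis was possible because sample numbers in the labels run on across the groups, so no number is shared between them. Counts below are of the 10 members that passed. With 1 array left out, the count ranged from 4 to 5 over ages (5 with all arrays), 0 to 1 at 3 months (0), 0 to 1 at 5 months (0), 2 to 3 at 8 months (3), 0 to 2 for the difference at 8 months minus that at 3 months (0), 0 to 1 for KO 5 minus 3 months (1), 1 to 3 for KO 8 minus 3 months (2), and 0 to 2 for the relation with Dbp (1). The count for KO 5 minus 3 months was 0 with a pseudocount of 1, without the filter and without a variance trend. That for KO 8 minus 3 months was 1 without a variance trend, 0 with only the groups compared, 4 over all probe sets and 0 without 8-month KO replicates 1 and 2. Array weights gave 2 at 3 months (Per2 and Tef) and 2 for the 8-minus-3 difference (Dbp and Nr1d2), which was 1 (Tef) over all probe sets. With only the groups compared the count was 1 at 3 months (Per2) and 1 at 5 months (Dbp). Alternatives added after seeing the data gave 1 at 8 months without KO replicates 1 and 2, 1 for the mean over 3 and 5 months alone, and, for the relation with Dbp, 2 on KO arrays and 0 on WT arrays. With sex removed as well as group means, that count was 0. The cause of these shifts was not tested, beyond the fewer arrays of some fits. No direction of a called member reversed. Among single genes, 3029 values kept their side of the threshold, 47 lost it and 20 gained it. Dbp, Tef, Hlf and Nr1d2 over ages, and Dbp and Nr1d2 at 8 months, passed in all 18 fits that left out 1 array. Of the members, signal over the bacterial controls limits Per3 (2 probe sets) and the dimmest probe set of Per2.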

Other observations

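Over the 18 arrays and 22964 ranked probe sets with 1 gene symbol, the values that moved most like Dbp after group means were taken off were those of Hnrnpa2b1 (r = 0.958), an RNA-binding protein, followed by Hacd1, Mtcl1, Zfp658, Zfp950, St8sia4, Plcxd2, Ryr1, 9530059O14Rik and Polb (r = 0.933). The 5 most opposite were Ighm (r = -0.942), Lonp2, Txnip, Hacd2 and Id4 (r = -0.916). Nr1d2 ranked 34, and 1.28% of the probe sets had r above 0.8. These values share the arrays and rest largely on 8-month KO replicates 1 and 2, without which r was 0.663 for Hnrnpa2b1 and 0.267 for Zfp658. Txnip, a thioredoxin-binding protein that glucocorticoids induce, was higher in 8-month KO brains by 1.10 ± 0.28 (adjusted p = 0.0127), and Id4, an inhibitor of bHLH factors, by 0.37 ± 0.094 (adjusted p = 0.0129). Without those 2 arrays they gave 0.18 (adjusted p = 0.664) and 0.055 (adjusted p = 0.845). Of 14 genes listed for glucocorticoid response, 9 passed the interaction test of 8 minus 3 months, all of them upward. In either direction 1.04% of all probe sets passed it. The median difference between genotypes in the list was -0.44 at 3 months and 1.02 at 8 months, so its sign changed. The median of the interaction was 1.55, and 0.99 without those 2 arrays.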
